A study of Mus musculus with 6 samples.

Results

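The expression table of this mouse stroke study lists 33353 FANTOM3 cDNA clones beside 23473 gene rows, and 999 of those clones form the set described here. Each of the 999 lay more than 10 kb from every gene row on either strand, covered the genome as a single block as long as its stated length, and held at least 30 counts summed over 6 libraries. The distance rule left 3942 clones, the single-block rule 2424 and the count rule 999, of which 988 lie on nuclear chromosomes and 11 on the mitochondrial genome. The rule used position, length and the summed count, and not the comparison between groups. Just outside it, D930031O09 and I0C0044D01 had 29 counts each, and just inside it 6030405G06 and 6720473K21 had 30.

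FANTOM3 was a collection of cloned full-length mouse cDNAs, and many of its unspliced clones had no open reading frame and no known gene. Such clones are a classical source of long intergenic noncoding RNA (lncRNA) candidates. An unspliced cDNA far from an annotated gene can come from a separate noncoding RNA, from the intron of a longer gene model, or from an extended end of a neighbouring messenger RNA. Many neuronal genes are very long, with alternative first exons and long 3′ ends.

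Brain RNA of adult male C57BL/6 mice, 8 to 9 weeks old, was depleted of ribosomal RNA and sequenced. In 3 libraries the middle cerebral artery of the mice had been blocked by a filament for 60 min (1 h of ischemia, the tMCAO model of stroke), with 6 h of reperfusion, abbreviated I/R below. In the other 3 the mice had the same operation without insertion of the filament (sham), and no genetic change is listed in either group. The labels do not say which side or region of the brain was taken, or whether each library is a separate animal. The p-values therefore reflect the spread between libraries alone, and part of it may be technical.

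Library totals ranged from 45425867 to 49686109 counts, and 3 counts corresponded to 0.0604 to 0.0660 counts per 1000000 (CPM). Markers of neurons, astrocytes, oligodendrocytes and microglia were all present, none of them at 0 in all libraries, as in brain tissue. Summed choroid plexus markers were 17.8 CPM in I/R replicate 2, against 419 to 1202 CPM in the other 5 libraries, and summed oligodendrocyte markers were 9505 CPM in I/R replicate 3, against 3706 to 5423 CPM. Summed striatal markers were 358 CPM in I/R replicate 1, against 90.6 to 227 CPM in the other 5. Neutrophil markers totalled 4.11 to 5.94 CPM in sham and 7.76 to 13.5 CPM in I/R. A list of nuclear lncRNAs (14 of 17 matched, among them Malat1 and Neat1) totalled 6869 to 8354 CPM in sham and 10556 to 11277 CPM in I/R, with 8 of 14 higher and 1 lower at an unadjusted p below 0.05 in edgeR's quasi-likelihood test and none past an adjusted p of 0.05. The part of these shifts in the results below was not tested.

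The label "intergenic" held for the gene rows of the table but not for RefSeq (GRCm38.p6, the coordinates of build mm10). In RefSeq, 393 of the 999 clones (39.3%) overlapped a protein-coding gene on the same strand, and 383 of these lay wholly inside it. A further 26 overlapped a coding gene on the opposite strand only, 11 a coding gene whose strand could not be read, 205 (20.5%) only a lncRNA gene and 30 only a gene of another biotype. No RefSeq gene was present at 323 clones (32.3%). The 393 clones fell in 162 coding genes, called hosts here, and the gene row of the host in the table was a shorter model: 312 clones lay upstream of it (115 hosts), 53 downstream of it (28 hosts), and the remaining 28 had a host with no row. None of the 999 overlapped any of 1005 listed miRNA hairpins.

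**Figure D1:**
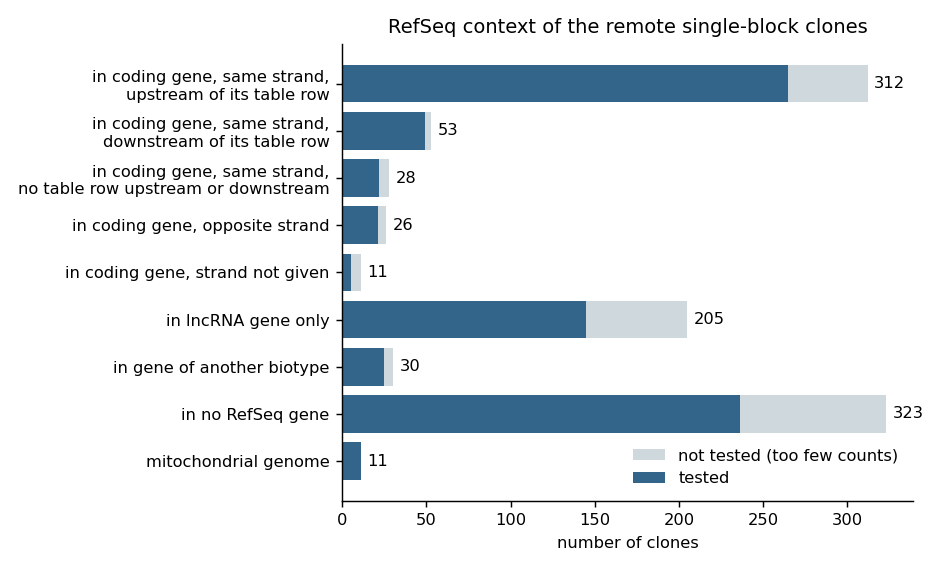
Number of remote single-block clones (x axis) by the RefSeq gene they overlap (y axis); the dark part of each bar is the clones with enough counts for the test. The largest groups are 323 clones in no RefSeq gene, 312 upstream of the table row of a coding host and 205 in lncRNA genes only.

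The list of RefSeq start sites used here had any start of the host for 259 of the 312 upstream clones. For 150 of them (41 hosts) it had a start upstream of the clone. The list was not complete, so a clone without a listed start upstream can still lie inside its RefSeq gene. The sequences before some of these start sites are shown because the clones described below lie between such a start and the shorter row, or begin at the start itself. Each is the 150 bases before the start site, 5′ to 3′ on the strand of the gene, from RefSeq (GRCm38.p6). Capitals mark the GC box (GGGCGG or, on the other strand, CCGCCC). For Creb5, which encodes a transcription factor of the CREB family, the window before the distal start and that before the start used by the table row are both given. For Fgf13, a fibroblast growth factor homologue that binds sodium channels, for B3galt1, a galactosyltransferase, and for Lsamp, a neuronal adhesion molecule, the distal window is given. Gm5636 is a lncRNA gene whose listed start lies 6 bases from the 5′ end of clone B930020H05.
Creb5 distal start, chr6:53287153-53287302, plus strand: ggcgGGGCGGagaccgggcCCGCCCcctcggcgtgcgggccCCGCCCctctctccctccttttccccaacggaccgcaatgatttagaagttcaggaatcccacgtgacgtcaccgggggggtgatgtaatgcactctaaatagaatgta
Creb5 row start, chr6:53573224-53573373, plus strand: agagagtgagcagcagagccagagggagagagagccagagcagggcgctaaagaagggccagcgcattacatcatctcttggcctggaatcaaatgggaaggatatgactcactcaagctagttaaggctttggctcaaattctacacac
Fgf13 distal start, chrX:59567349-59567498, minus strand: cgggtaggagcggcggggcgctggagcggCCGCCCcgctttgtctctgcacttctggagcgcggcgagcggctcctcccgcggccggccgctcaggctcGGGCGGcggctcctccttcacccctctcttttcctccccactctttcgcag
B3galt1 distal start, chr2:67565539-67565688, plus strand: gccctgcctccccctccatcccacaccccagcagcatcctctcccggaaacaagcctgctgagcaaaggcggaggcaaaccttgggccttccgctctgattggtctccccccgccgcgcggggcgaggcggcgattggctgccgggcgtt
Lsamp distal start, chr16:39984214-39984363, plus strand: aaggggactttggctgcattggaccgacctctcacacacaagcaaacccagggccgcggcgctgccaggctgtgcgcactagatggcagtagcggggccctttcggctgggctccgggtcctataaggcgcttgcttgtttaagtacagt
Gm5636 start, chrX:47436542-47436691, minus strand: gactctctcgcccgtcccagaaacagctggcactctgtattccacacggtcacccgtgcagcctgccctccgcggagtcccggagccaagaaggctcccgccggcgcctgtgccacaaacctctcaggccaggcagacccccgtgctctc

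The distal Creb5 window held 13 CpG dinucleotides and the window before the row start 2, where the median of 32851 such windows was 4. The same order was found in B3galt1 (12 distal, 2 at the row) and Lsamp (9 and 3), and the opposite order in Fgf13 (19 distal, 24 at the row) and Ank2 (3 and 4), whose windows are not all printed. The Gm5636 window held 11. A GC box on either strand was present in the distal Creb5 window and in both Fgf13 windows, and in 28.6% of all windows. TATAAA on either strand was in none of these 11 windows and in 7.57% of all. These matches describe letters in the windows and not sites in use.

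Clones of the set were mostly weakly represented. Their length ran from 204 to 5796 bases (median 2229), and their summed count had a median of 146, with 395 clones at 30 to 99 counts. The median RPKM, the authors' value per kilobase of row and per 1000000 counts, was 0.261 over the 988 nuclear clones, against 5.31 over the 17459 gene rows with at least 30 counts. RPKM was above 1 in 165 nuclear clones and above 10 in 11. The nearest gene row was at a median of 45.1 kb, and at most 1572 kb. The strands were evenly used, with 507 clones on the plus and 492 on the minus strand.

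Clones were not spread singly over the genome. Chromosome 16 held 95 clones, chromosome 2 held 91 and chromosome 8 held 75. There were 64 runs of at least 3 clones with gaps of at most 50 kb, and they held 259 clones. Overlap with another clone of the set was found for 150 clones, so that the 999 form 917 separate positions, and 283 overlapped a clone row outside the set. Such clones share reads and are not independent of each other. The 2 longest runs had 11 clones each. One was inside Lsamp (chr16:40282985-40497498, all on the plus strand) and the other was the mitochondrial genome. The next held 9 clones in the lncRNA gene Gm4258 on chromosome 1, whose nearest gene row is Mir181a-1.

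The 11 mitochondrial clones passed the distance rule only because the table has no gene row on the mitochondrial genome. RefSeq places mt-Rnr1 or mt-Rnr2, the mitochondrial ribosomal RNA genes, under 6 of them, COX3, ND3 and ND4L under D030018G08 and ND6 under I420007J21, while 0610041I18, A830048K20 and B230327J08 lie beyond the last coding gene. They took 55.1 to 59.2% of all counts of the set, and D030018G08 alone averaged 2147 RPKM. Its counts were 69790, 76559 and 65885 in the 3 sham libraries and 72362, 71077 and 66439 in the 3 I/R libraries. The groups overlapped for this clone. D030018G08 is drawn on the minus strand, opposite the 3 genes. The strand setting of the counting was not given in the sources used here, so reads of both strands cannot be told apart.

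Among nuclear clones the highest level was that of F730007A20 (chr9:65195902-65196685, in the lncRNA gene Gm40527), at 146 RPKM. Its counts were 6895, 6107 and 5148 in sham and 4302, 5454 and 4937 in I/R, and the groups overlapped. The next were the Creb5 clones 7120469J23 and 7120481G13, at 28.7 RPKM each, A830028E23 in the 3′ end of Grin2b at 26.7 RPKM, and A230107G21 and 6820412M08 in the 3′ end of Lsamp at 25.1 and 24.6 RPKM. Grin2b encodes the GluN2B subunit of the NMDA receptor. The longest clones were weak: E130019M17 (5796 bases, 0.412 RPKM), F830036E24 (0.0262 RPKM, too few counts for the test) and A130038M05 in Gatad2b (0.271 RPKM).

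The comparison of I/R with sham asks which RNAs change in amount within 6 h of reperfusion. No clone of the set passed an adjusted p of 0.05 in edgeR's quasi-likelihood test with Benjamini-Hochberg adjustment over the 40170 rows tested, in either direction, where 0.00249% of all rows tested were called higher and 0% lower. The smallest adjusted p of the set was 0.129. Of the 999 clones, 779 had enough counts to be tested, and 8 of these reached that filter through 1 group only (7 through I/R, 1 through sham) and so had to differ. At an unadjusted p below 0.05, 83 clones (10.7% of 779) were higher in I/R, against 8.73% of all rows tested, and 32 (4.11%) were lower, against 6.9%. Over all 999, tested or not, the CPM of the groups did not overlap in 164 clones higher in I/R (16.4%, against 13.9% of the 43486 rows with at least 30 counts) and in 42 lower (4.20%, against 6.6%).

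Other tests called a few clones. Among the 483 clones for which it gave an adjusted p, DESeq2 called 4 higher and 4 lower. Over all rows with an adjusted p it called 0.982% higher and 0.751% lower. Its higher clones were A830014C24, 6720482K20 and the identical 7120469J23 and 7120481G13, and its lower clones the overlapping 6820412M08 and A230107G21, 9330121K16 and C130064D23. Without the filter on low counts, edgeR called 2 higher (A830014C24 and 6720482K20) and 0 lower, against 0.0938% and 0.0478% of all rows. At an unadjusted p below 0.05, 97 of the 999 were higher and 40 lower in this fit, against 7.19% and 5.78% of all rows. Limma-voom called 0 higher and 0 lower, against 0.00996% and 0% of all rows. It had 72 higher and 34 lower at an unadjusted p below 0.05. The share of all rows at that unadjusted p was not computed for limma-voom. The authors' deposited table lists all 999, of which 112 were higher and 27 lower at their q below 0.05, against 14.7% and 9.77% of their rows.

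Single libraries decided these counts. Without I/R replicate 1, edgeR called 26 of 824 clones higher and 2 lower, against 1.59% and 0.995% of all rows tested. Without sham replicate 2 it called 4 of 842 higher and 0 lower, against 0.0799% and 0.00242% of all rows tested. Leaving out any of the other 4 libraries gave 0 calls. At an unadjusted p below 0.05 the higher count was 135 without I/R replicate 1, and the lower count was 21 without sham replicate 1 and 17 without sham replicate 3. The matching shares of all rows were not computed, so these counts cannot be set against the whole table. With the log2(CPM + 0.1) values of each clone centred on their mean over the 6 libraries, the median over the tested clones was -0.05, -0.15 and -0.03 in the sham libraries and -0.01, 0.20 and 0.14 in I/R. I/R replicate 1 lay next to the sham libraries, and the groups did not overlap in CPM over deposited totals. Its distance from sham replicate 3 was small beside the pooled SD of these medians within groups (0.09). TMM factors, not applied here, were 1.03 in I/R replicate 1 and 0.984 and 0.990 in sham replicates 1 and 3. Applying them would remove the gap.

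The set as a whole was shifted towards I/R. The median log2 fold change of the 779 tested clones was 0.18, beside 0.02 over all rows tested and -0.04 over gene rows, and 491 (63.0%) were above 0, beside 53.1% of all rows. Summed over the 988 nuclear clones, CPM was 1664 ± 46.9 in sham and 1857 ± 160 in I/R (SD, n = 3 each), a ratio of 1.12, and I/R replicate 1 (1682 CPM) lay within the sham range of 1611 to 1697. With the 11 mitochondrial clones the sums were 3870 ± 272 and 4235 ± 285 CPM (SD, n = 3 each), a ratio of 1.09. Such sums of bulk tissue cannot tell fewer cells of a type from less RNA per cell. Single-block clones overlapping a gene row, under the same count rule, had a median of 0.12 (14464 tested), and the 276 tested spliced clones at the same distance a median of 0.13. Single-block clones up to 10 kb from a gene row had a median of -0.09 (1996 tested). At an unadjusted p below 0.05, 68 of the last (3.41%) were higher and 204 (10.2%) lower, against 8.73% and 6.9% of all rows tested. The shares were 12.0% higher and 5.63% lower for the overlapping clones, and 10.1% and 2.17% for the spliced ones. These medians and shares were set side by side without a test.

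Clones upstream of the row of their host were higher in I/R more often than lower. Of these 312, 265 were tested, 192 of them above 0, with a median log2 fold change of 0.33. At an unadjusted p below 0.05, 48 were higher (18.1%, against 8.73% of all rows tested) and 5 lower (1.89%, against 6.9%). Among all 312 the groups did not overlap in 74 higher (23.7%, against 13.9% of rows with at least 30 counts) and 8 lower (2.56%, against 6.6%). Without sham replicate 3 the 48 became 28 and without I/R replicate 3 they became 30, while the 5 became 3 without sham replicate 1, 18 without I/R replicate 2 and 2 without I/R replicate 3. Their summed CPM was 468, 428 and 449 in sham and 487, 641 and 588 in I/R. The sum includes both identical Creb5 clones, 7120469J23 and 7120481G13, which share all reads. Each averaged 53.4 CPM in sham and 78.4 CPM in I/R. Without these clones, I/R replicate 1 lies within the sham range. All 3 I/R libraries were above all sham libraries (ratio 1.28), which with 3 against 3 libraries cannot give a p below 0.1 in an exact permutation test. This separation held for deposited totals only. TMM factors were 0.984 in sham replicate 1 and 1.03 in I/R replicate 1. With TMM effective library sizes, I/R replicate 1 falls just below sham replicate 1.

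The 53 clones downstream of the row of their host were more often lower. Of 49 tested, 10 were lower (20.4%, against 6.9% of all rows tested) and 1 higher (2.04%, against 8.73%) at an unadjusted p below 0.05, with 23 of 49 above 0 and a median of -0.01. The 10 became 5 without sham replicate 3, and the 1 became 6 without I/R replicate 1. Their summed CPM was 218, 207 and 211 in sham and 161, 192 and 177 in I/R, and all I/R libraries were below all sham libraries (ratio 0.833). Most of this drop lay in a few abundant clones. The Lsamp clones 6820412M08 and A230107G21, which share most reads, averaged 36.6 and 36.9 CPM in sham and 26.4 and 26.7 in I/R. The Grin2b clone A830028E23 averaged 51.8 CPM in sham and 40.6 in I/R. Without these clones the groups overlap. Clones in no RefSeq gene (236 tested) had a median of 0.13, with 19 higher (8.05%) and 7 lower (2.97%). Those in lncRNA genes only (145 tested) had a median of 0.06, with 10 higher (6.9%) and 5 lower (3.45%). The higher shares of both were below the 8.73% of all rows tested. The difference between these groups of clones was not tested.

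**Figure D2:**
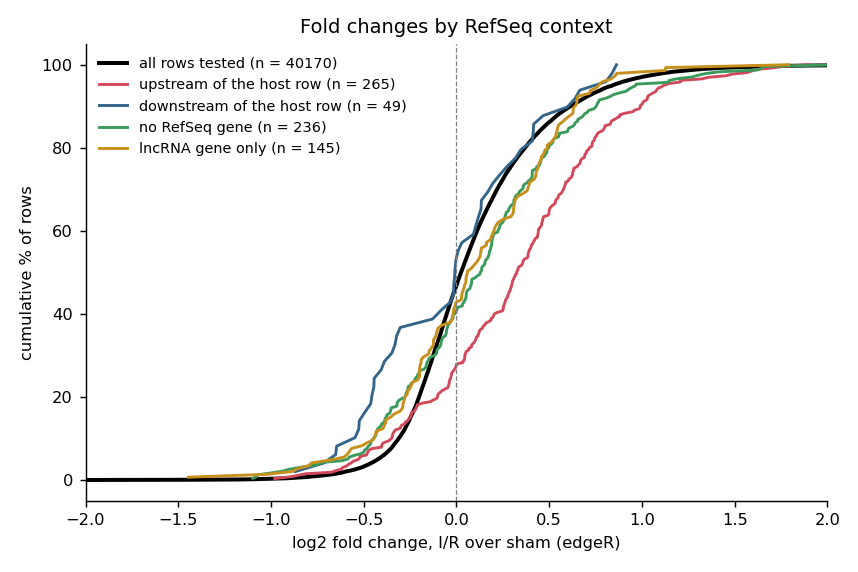
Cumulative percentage of rows (y axis) with a log2 fold change, I/R over sham, up to the value on the x axis, for all tested rows and 4 groups of clones. The curve of the 265 clones upstream of a host row lies to the right of all rows (medians 0.33 and 0.02), and that of the 49 downstream clones has a step to the left of 0.

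**Figure D3:**
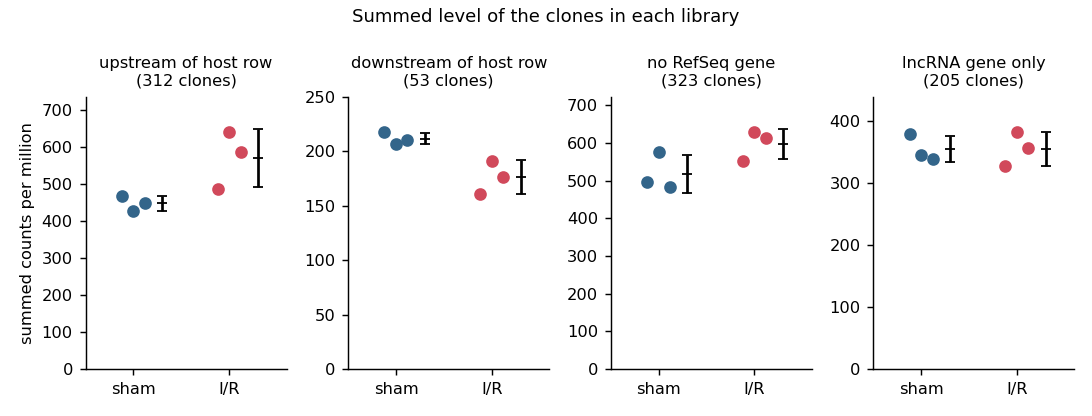
Summed CPM (y axis, from 0) of the clones of 4 groups in each library (points), with mean ± SD over the 3 libraries of a group (black). With CPM over deposited totals, the I/R libraries lie above sham for clones upstream of a host row and below sham for clones downstream of it. Both separations rest on a few abundant clones, and the first also on the library size used. The other 2 groups overlap.

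Among the 10 clones higher in I/R with the smallest p and non-overlapping groups, 8 lay in coding hosts upstream of the row. The one with the smallest p, A830014C24 (chr10:9194631-9195819, minus strand), lay in no RefSeq gene, 309 kb from the nearest gene row, Sash1. Its counts were 13, 11 and 10 in sham and 30, 58 and 54 in I/R. The groups did not overlap, the log2 fold change was 2.07 ± 0.39 (SE), and the adjusted p in edgeR was 0.129.

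The clones in coding hosts were led by Ppargc1a and Creb5. Clone 6720482K20 lies in Ppargc1a, which encodes a coactivator of mitochondrial biogenesis, 526 kb upstream of the row (chr5:52079888-52082332). Its counts were 66, 55 and 52 in sham and 108, 149 and 138 in I/R. The groups were well apart, at 1.21 ± 0.23 (SE) on the log2 scale, with an adjusted p in edgeR of 0.129. The other 4 Ppargc1a clones had log2 fold changes of 0.25 to 0.46 and non-overlapping groups, against 13.9% of rows with at least 30 counts. The Ppargc1a row itself was at -0.01 ± 0.12. Summed over the 5 clones, CPM was 15.5 ± 0.635 in sham and 22.0 ± 1.58 in I/R (SD, n = 3 each).

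The identical rows 7120469J23 and 7120481G13 (chr6:53485193-53487492) share all reads and count as 1 position in Creb5. They lie 198 kb past the distal start printed above and 85.9 kb before the row. Counts were 2738, 2493 and 2606 in sham and 3424, 3781 and 3762 in I/R, without overlap. The log2 fold change was 0.50 ± 0.10 (SE), with an adjusted p of 0.139 in edgeR. Among the 10 named clones higher in I/R these had the highest level. The Creb5 row itself was weak, at 0.824 CPM in sham. Its log2 fold change was 0.89 ± 0.34 (SE), with an adjusted p of 0.251 in edgeR. Unlike the Ppargc1a row, it was not near 0 and had the same sign as the clones.

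Further clones of long neuronal hosts were scarcer. In Fgf13, B230344O13 (chrX:59505322-59508784) had 9, 10 and 13 counts in sham and 28, 26 and 44 in I/R, without overlap, a log2 fold change of 1.62 ± 0.40. In Ank2, which encodes the membrane adaptor ankyrin-B, D930003J22 (chr3:127390078-127393622) had 20, 18 and 25 counts in sham and 30, 71 and 73 in I/R. Its lowest I/R value was that of replicate 1, close to the sham range, and the log2 fold change was 1.49 ± 0.39. In B3galt1, B230216C01 (chr2:67655674-67658433) had 34, 46 and 31 counts in sham and 66, 94 and 73 in I/R, without overlap, a log2 fold change of 1.08 ± 0.28. Their adjusted p-values in edgeR were 0.157, 0.165 and 0.162.

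B930049F15 in Cracd (1.57 ± 0.42) and B930082J09 in Wscd2 (0.55 ± 0.15) completed the coding hosts on the log2 scale. B930082J09, at 5.35 ± 0.655 CPM in the sham libraries and 8.13 ± 0.356 in the I/R libraries (SD, n = 3 each), had little spread in I/R. The Gm5636 clone B930020H05, which starts at the listed start of that gene, had 222, 185 and 246 counts in sham and 295, 348 and 356 in I/R. The groups did not overlap, with a log2 fold change of 0.63 ± 0.17 (SE).

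**Figure D4:**
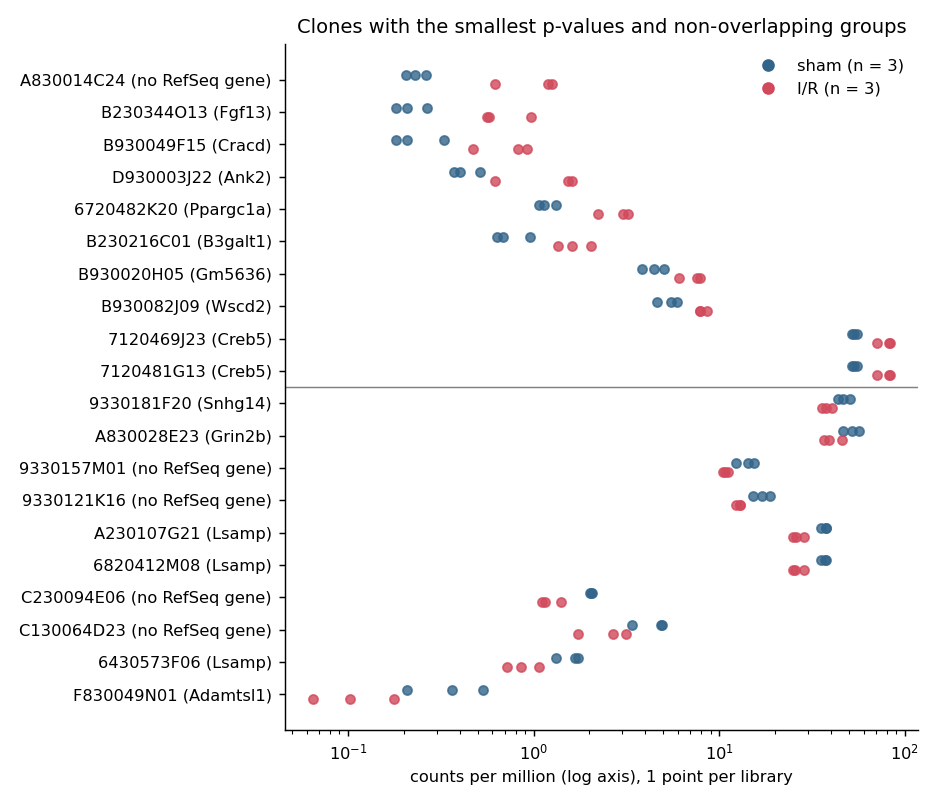
CPM (x axis, log scale) in each of the 3 sham and 3 I/R libraries (points) for the 20 clones, 10 higher and 10 lower, with the smallest p-values among those whose groups do not overlap. Points run from below 1 CPM (all F830049N01 libraries and the sham libraries of A830014C24) to 82.8 CPM (Creb5, I/R replicate 3), and the lowest I/R point of D930003J22 (0.618 CPM) lies close to its highest sham point (0.512 CPM). F830049N01 reached the count filter through sham only and so had to differ.

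Fitted fold changes of clones in 1 host had the same sign in some hosts and mixed signs in others. In B3galt1 all 12 clones were above 0 (median 0.44), while the B3galt1 row was at -0.17 ± 0.11 on the log2 scale. Summed over the 12 clones, CPM was 7.51 ± 0.413 in sham and 11.2 ± 0.677 in I/R (SD, n = 3 each). In Robo1, a receptor of the axon guidance cue Slit, all 9 tested of 10 clones were above 0 (median 0.73) and the row was at -0.01 ± 0.10. All 6 Ank2 clones (median 0.52) and 5 of 6 Fgf13 clones (median 0.79) were above 0, with rows at 0.03 ± 0.10 and -0.05 ± 0.18. In Svil only 1 of 6 clones had enough counts for the test. The groups did not overlap in 5 of 6, all higher in I/R, against 13.9% of rows with at least 30 counts. The 6 clones form 5 separate positions. They summed to only 1.95 ± 0.229 CPM in sham and 2.88 ± 0.256 in I/R (SD, n = 3 each). Signs were mixed in Lrrc4c (5 of 11 tested above 0, median 0.00), Nrg1 (7 of 11, median 0.39) and Nav3 (6 of 10, median 0.15), where in all 1 clone, in Nrg1, was higher and none lower at an unadjusted p below 0.05.

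In Lsamp and Robo2 most fitted fold changes were below 0, but no clone passed an adjusted p of 0.05 in edgeR. At an unadjusted p below 0.05, 5 of 38 were lower and 1 higher in Lsamp. In Robo2, 2 of 15 were lower and 0 higher. The shares of all rows tested were 6.9% lower and 8.73% higher. Lsamp held 38 clones, 36 of them up to 1535 kb upstream of the row, and 28 of 38 were below 0 (median -0.23, from -0.98 to 0.74). The Lsamp row was at -0.08 ± 0.14. Their summed CPM was 121 ± 5.79 in sham and 97.5 ± 9.77 in I/R (SD, n = 3 each). In Robo2, another Slit receptor, 14 of 15 clones were below 0 (median -0.34), and the row was at -0.19 ± 0.11. The summed CPM of the Robo2 clones was 49.3, 43.4 and 49.1 in sham and 33.1, 53.5 and 34.1 in I/R, so that I/R replicate 2 was the highest of all 6 libraries. In Lrrtm4, a synaptic adhesion gene, the 9 clones lay downstream of the row, and 7 of 8 tested were below 0 (median -0.52).

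**Figure D5:**
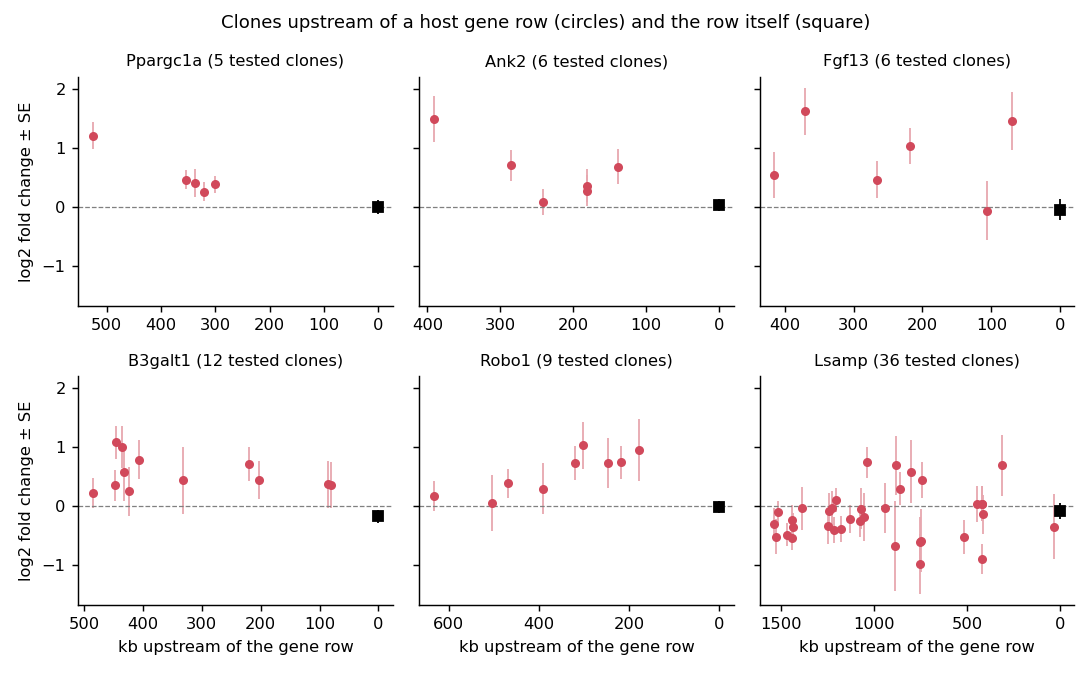
Log2 fold change ± SE (y axis) of each tested clone upstream of the row of its host (circles) against its distance from that row in kb (x axis, upstream to the left), and of the row itself (black square at 0), for 6 hosts. The clones of Ppargc1a, Ank2, B3galt1 and Robo1 lie above 0 and their rows near 0; most Lsamp clones lie below 0.

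Across all hosts, clone and row were only loosely related. Over 313 tested clones with a tested host row (118 hosts), the log2 fold changes of clone and row had a Pearson r of 0.18 and a Spearman rho of 0.28, given as a description because clones of a host share the row and all pairs share the 6 libraries. The clone was above its host row in 211 of 313 pairs. The median clone was at 0.29 and the median host row at 0.01.

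Fold changes also differed by position inside the host. Of the tested clones with a listed start upstream, 40 lay within 50 kb of it (29 hosts), with 34 above 0 and a median of 0.47. Another 37 lay at 50 to 200 kb (17 hosts), with 23 above 0 and a median of 0.39, and 65 lay beyond 200 kb (10 hosts), with 34 above 0 and a median of 0.04. Over the 142 clones the Spearman rho of fold change and distance was -0.31. Lsamp supplied 28 of the 65 farthest clones. Without Lsamp the 3 medians were 0.51, 0.48 and 0.26, and without Lsamp and Robo2 they were 0.54, 0.57 and 0.33, so the fall from the first class to the second rested on those 2 hosts. Clones of a host share its RNA, and the classes were not tested against each other.

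For 20 clones the 5′ end lay within 100 bases of a listed start on the same strand. Their median RPKM was 0.433, and 11 of 17 tested were above 0, with a median of 0.08. The most abundant was 9630004H02, 42 bases past a start of the sodium channel gene Scn2a, at 7.63 RPKM. Its log2 fold change was 0.07 ± 0.15, within the spread between libraries, and was -0.11 without I/R replicate 2.

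The clones lower in I/R included the 3′ ends of large neuronal genes. A230107G21 (chr16:42180408-42181670) and 6820412M08 overlap each other at the 3′ end of Lsamp, 34.2 kb past the row, and share most reads. Counts of 6820412M08 were 1858, 1786 and 1724 in sham and 1251, 1318 and 1128 in I/R. The groups did not overlap, the log2 fold change was -0.53 ± 0.10 (SE), and the adjusted p in edgeR was 0.139. Clone A830028E23 (chr6:135713233-135714962), 14.8 kb past the Grin2b row, had 2820, 2247 and 2545 counts in sham and 1792, 2126 and 1764 in I/R. These groups were close but did not overlap, with a log2 fold change of -0.41 ± 0.12 and an adjusted p of 0.185 in edgeR.

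Next to Gpm6a, a neuronal membrane glycoprotein, the overlapping clones 9330121K16 (chr8:55073249-55077137) and 9330157M01 lay in no RefSeq gene, 12.4 kb and 12.8 kb from the row, and share reads. Counts of 9330121K16 were 931, 728 and 829 in sham and 630, 566 and 590 in I/R. The groups did not overlap, with a log2 fold change of -0.47 ± 0.12 and an adjusted p of 0.160 in edgeR. C130064D23 (chr17:42518401-42521447), 10.7 kb from Ptchd4, was at -0.85 ± 0.24 on the log2 scale, with an adjusted p of 0.184 in edgeR. C230094E06, 24.4 kb from Mgat4c, had 103, 97 and 99 counts in sham and 54, 53 and 64 in I/R, and the groups did not overlap.

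The remaining 3 were of mixed context. 9330181F20 in Snhg14, the lncRNA that hosts small nucleolar RNAs and runs antisense to Ube3a, had 46.9 ± 3.63 CPM in the sham libraries and 38.1 ± 2.48 in the I/R libraries (SD, n = 3 each). 6430573F06 lies in Lsamp, 417 kb upstream of the row, at -0.90 ± 0.26 on the log2 scale. F830049N01, opposite Adamtsl1, had 18, 10 and 26 counts in sham and 5, 3 and 8 in I/R, at which depth single counts weigh heavily. It was the 1 clone that reached the count filter through sham only, so its groups had to differ.

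By distance from the nearest gene row of any strand, the 277 clones at over 50 to 200 kb summed to 440, 435 and 431 CPM in sham, against 494, 615 and 598 CPM in I/R. All I/R libraries were higher (ratio 1.31), and sham varied by only 4.37 CPM (SD). With 3 against 3 libraries an exact permutation test cannot give a p below 0.1. The sums count both identical Creb5 clones, which share all reads, each at 53.4 CPM in sham and 78.4 CPM in I/R. The 522 clones at over 10 to 50 kb summed to 977 ± 43.5 CPM in the sham libraries and 1005 ± 62.3 in the I/R libraries, and the 189 beyond 200 kb to 252 ± 7.17 and 284 ± 34.9 CPM (SD, n = 3 each), and the groups overlapped in both. The 231 clones with a same-strand gene row ending within 50 kb upstream had a median log2 fold change of 0.07, and the other 757 nuclear clones 0.21.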

How the data were processed

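Per the labels' protocols, libraries of rRNA-depleted total RNA were prepared by NEBNext Ultra chemistry and read as pairs on an Illumina instrument. The genome build was mm10, per the submitters' processing notes. Aligner, counter, annotation and strand setting were not given in the sources used here. Raw counts per row, RPKM and a row length were deposited by the authors. The deposited RPKM equals the count per kilobase and per 1000000 counts of the column in 100% of values (relative tolerance 0.001). A second deposited table holds the authors' mean RPKM, log2 fold change, p-value and q-value, made by a test that they do not name there.

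The test was edgeR 4.0.16 under R 4.3.3 (TMM factors, filterByExpr, robust quasi-likelihood, two-sided, Benjamini-Hochberg over 40170 rows). It was run on simulated data with changes only in rows at a mean of at least 1 CPM. Of the 999 clones, 339 reach that level, so the simulation does not cover the weaker ones. DESeq2 1.42.0 and limma 3.58.1 were alternatives. CPM used deposited column totals of 45425867 to 49686109 counts, and 3 counts were the floor, which covers counting error only. Replicates differed by 8.26 to 29.7 times the sampling noise (chi-square per degree of freedom), so each library was 1 sample. RefSeq genes and start sites (GRCm38.p6) were matched by position, not used for the rule. No per-sample columns were left unmapped.

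The clones, lists and tests were chosen with earlier results of these data known. Named clones were up to 10 higher and 10 lower with the smallest p among those with non-overlapping groups, the 10 with the highest RPKM, the 3 largest runs, the 3 longest, and 4 at the count threshold. Hosts with several clones, the Scn2a clone and the clones of the closing observations were named after their values were seen. Alternatives are given in the closing section.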

Additional observations from a re-analysis of the deposited data

How the results depend on the processing

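Of 206 values of comparisons computed under alternatives, 174 stayed on the same side of their threshold or within 1.5 times the count or 1 SD of the main value. The summed CPM values among them were held to an exact permutation p of 0.05, which cannot fall below 0.1 with these libraries. They could only stay or reverse sign, so their staying is no measure of stability. Clones called higher (0) became 2 without the filter, 4 with DESeq2, and 0 to 26 when each library was left out in turn. Clones called lower (0) became 4 with DESeq2 and 0 to 2 with a library left out. At an unadjusted p below 0.05, the higher count (83) was 55 with a mean of at least 1 CPM, 50 for clones more than 50 kb from every gene row, and 56 to 135 with a library left out. The lower count (32) was 12 beyond 50 kb and 17 to 47 with a library left out. For clones upstream of the host row, the higher count (48) was 25 with a mean of at least 1 CPM, 28 beyond 50 kb and 28 to 68 with a library left out, and the lower count (5) was 2 to 18. For clones downstream, the higher count (1) was 2 with TMM factors from gene rows, without the filter, with a mean of at least 1 CPM, with voom and with the replicate block, and 0 to 6 with a library left out. Their lower count (10) was 3 beyond 50 kb and 5 to 12 with a library left out. These counts by host and the set without mitochondrial clones were added after seeing the data. Shares of all rows at an unadjusted p were computed only for the main edgeR fit and the fit without the filter. The cause of each change was not tested, except that stricter distance or count rules leave fewer clones.

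The replicate block called 0 clones in either direction and changed no other call. Same-numbered libraries correlated at -0.11, 0.05 and 0.21, and differently numbered ones at -0.20 to 0.18. With so few libraries these values cannot decide whether the numbers pair the samples. The I/R minus sham difference in summed CPM of clones at 10 to 50 kb (27.7) was -10.7 with TMM effective library sizes and -0.41 to 61.2 with a library left out. For clones with a same-strand row ending within 50 kb upstream (-14.1) it ranged from -28.7 to 5.17. The alternative of more than 50 kb gave no value for these 2 classes, which it empties. Of 460 values of 36 named clones, 27 passed the threshold that the main value missed, and 14 reversed, all of clones near 0: D030018G08 (0.036 with TMM factors from gene rows and 0.025 at 1 CPM or more, -0.070 to 0.072 with a library left out), E130019M17 (0.028, 0.018, and -0.18 to 0.088), I420007J21 (0.0017 with TMM factors from gene rows, -0.16 to 0.11) and 9630004H02 (-0.11 to 0.15). Clones under about 100 counts have wide counting error, and 220 of the 999 could not be tested at this depth.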

Other observations

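Between the Sash1 row and the Samd5 row on chromosome 10 (741 kb, chr10:8886071-9627258) the table lists 13 of the clones, 12 on the minus strand. The interval was chosen after its values were seen. All 12 tested clones were above 0 (median log2 fold change 0.83). In edgeR's quasi-likelihood test 5 of them were higher at an unadjusted p below 0.05, against 8.73% of all rows tested. None passed an adjusted p of 0.05. Their summed CPM was 7.19, 6.44 and 6.08 in sham and 6.16, 16.4 and 18.1 in I/R. I/R replicate 1 lay within the sham range, and the other 2 I/R libraries were well above it. The Sash1 row was at 0.22 ± 0.13 and the Samd5 row at 0.24 ± 0.25 on the log2 scale (SE). Besides A830014C24, the clones E030006D10 (1.14 ± 0.36), C030020H23 (1.65 ± 0.50) and E030025F10 (1.42 ± 0.42) lay in no RefSeq gene. Without I/R replicate 1, 5 clones of the interval passed an adjusted p of 0.05, where 1.59% of all rows tested were called higher.

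The same library stood apart at 2 overlapping clones of Kcnip4, which encodes a potassium channel interacting protein. A830089E20 had 325, 313 and 258 counts in sham and 187, 645 and 546 in I/R, so I/R replicate 1 was below every sham library and the other 2 were above. At 5330430B06 in Pde10a, a phosphodiesterase gene of striatal neurons, counts were 34, 33 and 27 in sham and 23, 84 and 92 in I/R. The summed striatal markers were highest in that same library, and their part in these values was not tested.

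In sham, replicate 2 stood apart at a few abundant clones. Counts of 1200016E24, near the histone gene Hist1h2bn, were 828, 2544 and 740 in sham and 1743, 1920 and 1733 in I/R. E430024C06, in the T-cell receptor beta locus Tcrb, had 202, 482 and 178 counts in sham and 439, 432 and 443 in I/R. The 4 clones called higher without that library (these 2, E130111P11 and E430016H06, which overlaps E430024C06) all had their highest sham count there.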
